A study of Mus musculus with 24 samples.

Results

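The genes followed here were Nppa, Nppb, Ankrd1 and Acta1, 4 stress-responsive genes of heart muscle, measured in mouse heart pieces after ischemia-reperfusion (I/R) or sham surgery. They were chosen by name, and each was read from its brightest probe in the heart channel, so that the 4 genes are 4 of 11430 features tested. Mice were wild type (MuRF1+/+) or MuRF1 Tg+, strain-matched and 12 to 16 weeks old. In I/R the left anterior descending coronary artery was tied and released, while sham hearts were operated on without it. Each heart gave a piece above and a piece below the tie or its would-be site. This made 8 groups of 3 two-colour Agilent arrays, from 3 biological replicates per genotype and surgery. MuRF1, encoded by Trim63, is a ubiquitin ligase of the sarcomere. The promoter that drives the transgene, its cell type, the strain of the hearts and the time to harvest are not given in the sources used here.

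Nppa and Nppb encode the precursors of atrial and B-type natriuretic peptide, hormones that heart muscle cells release under stretch and that lower blood volume and pressure. Both are made in the fetal ventricle. After birth Nppa stays high in the atria and low in the healthy ventricle, and both genes are classic markers of ventricular load. Ankrd1 encodes cardiac ankyrin repeat protein, which binds titin in the sarcomere and also acts in the nucleus. Acta1 encodes skeletal alpha-actin, an actin isoform that the fetal heart uses and that overloaded heart muscle can use again. Every value below is a log2 ratio of heart RNA (Cy5) to a common reference (Cy3) of RNA pooled from whole day 1 pups of strain C57BL/6. A value of 0 therefore means equal signal of heart and whole newborn, and a step of 1 is a doubling.

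The promoters of the 4 genes are shown because their proteins are used together as a stress panel, and the letters marked in capitals are motifs read by factors long studied at them. RefSeq (GRCm38.p6) had an entry for 4 of the 4 genes. Each window holds the 250 bases before the start site of that table and is written 5′ to 3′ on the gene's strand, as chr4:148000472-148000721 (+) for Nppa, chr8:123894776-123895025 (-) for Acta1 and chr19:36119845-36120094 (-) for Ankrd1. For Nppb, the annotated RefSeq gene covers the last 114 bases of the window chr4:147985650-147985899 (+). Only a short stretch with its motifs, chr4:147985795-147985821, is shown, and it lies inside that annotated gene. Capitals mark GATAA (GATA factors), CATTCC (TEAD factors, the MCAT element), AAGTG (NK2 homeobox factors) and the CArG box of serum response factor, each on either strand.
Nppa: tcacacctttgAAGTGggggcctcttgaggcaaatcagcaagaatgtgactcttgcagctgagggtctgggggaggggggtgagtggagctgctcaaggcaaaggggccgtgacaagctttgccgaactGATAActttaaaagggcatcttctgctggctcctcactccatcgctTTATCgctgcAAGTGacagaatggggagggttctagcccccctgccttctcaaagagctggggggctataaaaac
Nppb: GGAATGcagctGATAAatcagaGATAA
Ankrd1: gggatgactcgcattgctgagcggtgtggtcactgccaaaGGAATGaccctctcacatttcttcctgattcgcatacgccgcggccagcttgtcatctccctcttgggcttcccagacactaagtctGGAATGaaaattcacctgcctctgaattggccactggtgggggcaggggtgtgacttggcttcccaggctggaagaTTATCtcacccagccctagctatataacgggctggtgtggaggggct
Acta1: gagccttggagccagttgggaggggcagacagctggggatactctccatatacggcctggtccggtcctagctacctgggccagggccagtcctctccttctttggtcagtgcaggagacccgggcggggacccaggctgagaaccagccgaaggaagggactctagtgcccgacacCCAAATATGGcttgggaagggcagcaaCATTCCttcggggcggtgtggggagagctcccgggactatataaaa
GATAA matched 2 times in Nppa, 2 times in Nppb and 1 time in Ankrd1, and 22.6% of the 32851 promoters in the table hold it. CATTCC matched 1 time in Nppb, 2 times in Ankrd1 and 1 time in Acta1, against 12.6% of all promoters. AAGTG, found in 40.7% of promoters, matched 2 times in Nppa. The CArG box matched 1 time in Acta1 and is held by 1.47% of promoters. A match describes the letters and is not a binding site.

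Nppa and Nppb each had 2 probes of 60 bases. In the array's own annotation, whose genome build is not named, the brighter Nppa probe starts 977 bases further along the gene than the second one, and the second spans a gap of 103 genomic bases. The brighter Nppb probe starts 425 bases beyond its second. The second Nppa probe, both Nppb probes and the Acta1 probe are given here. For Nppa, and for Nppb on the loess ratio, the Tg+ results below the tie depended on which probe was read. On Agilent's ratio the Nppb probes ran close together, with a Pearson r of 0.96 over the 24 arrays. The Acta1 sequence shows the stretch of that actin that was measured.
Nppa, second probe: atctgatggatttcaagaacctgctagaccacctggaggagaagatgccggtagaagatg
Nppb, brighter probe: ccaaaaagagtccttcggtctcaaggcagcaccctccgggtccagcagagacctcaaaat
Nppb, second probe: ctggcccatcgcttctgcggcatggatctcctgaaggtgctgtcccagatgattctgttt
Acta1, only probe: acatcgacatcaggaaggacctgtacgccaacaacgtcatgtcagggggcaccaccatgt
The chosen probe of every gene was well above background in the heart channel on all 24 arrays. Nppb was near the floor of the reference channel, with a mean Cy3 signal of 67.9 against a background of 35.7, so that its ratio rests on a dim denominator. For Acta1 the reference was the bright channel, with a mean Cy3 signal of 13100 against 1840 in Cy5.

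The heart channel was weak on 5 of the 12 I/R arrays, where under 25% of Cy5 spots were well above background (9.9% to 24.2%, against 34.6% to 43.3% on sham arrays). The arrays in question were replicates 1 and 2 of wild-type I/R above, replicate 1 of wild-type I/R below, and replicates 2 and 3 of Tg+ I/R below. Several results of the followed genes that rest on them are given with and without them. Differences and counts of the other genes, in the gene lists and cell-type markers, are given with all arrays only. Whether those hold without the weak arrays is not shown. Without the weak arrays, wild-type I/R above and Tg+ I/R below keep 1 array each, which the fit takes to vary like the other groups. The median SD within groups was 0.07 to 0.10 in sham and 0.12 to 0.22 in I/R groups. Trim63, the gene of the transgene, had a Tg+ minus wild-type difference in sham hearts of 0.03 ± 0.39 (SE) in the upper piece and -0.07 ± 0.39 in the lower one (limma adjusted p = 1 for both). Whether its probe lies in the transgene is not given, so it does not check the genotype labels. The mean log2 ratio of 8 ventricular muscle markers lay between 2.44 and 3.16 on every array. After I/R 3 of these 8 fell and 1 rose in each Tg+ comparison by limma. In wild type 1 fell above and 0 passed below. Their medians were -0.55 and -0.48 in Tg+ above and below and -0.41 and -0.22 in wild type. Of all features 6.95% rose and 8.37% fell in Tg+ above, and 15.4% and 17.1% in Tg+ below. In wild type 5.97% rose and 7.31% fell above, and 2.14% and 3.46% below. The part of these markers in the results below was not tested. The labels do not state that a replicate number marks a heart, so p-values measure the spread between arrays, whose small number limits precision.

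In sham hearts the group means of the 4 genes lay close together across genotype and piece. Nppa lay at 2.97, 1.96 and 2.40 in wild type above, 1.90, 1.88 and 3.08 in wild type below, 1.85, 3.16 and 2.19 in Tg+ above and 1.87, 2.73 and 2.56 in Tg+ below. These 4 groups overlapped throughout, and their means ran from 2.29 to 2.44. Nppb group means ran from 4.11 to 4.31, and those of Acta1 from -3.70 to -3.43. Ankrd1 was the one gene with sham groups that did not overlap. Above the site its values were 3.92, 3.88 and 3.70 in wild type and 4.05, 4.20 and 4.39 in Tg+, every Tg+ array being higher, as held for 6.06% of all features in that comparison. The Ankrd1 difference was 0.38 ± 0.28 above and 0.62 ± 0.28 below (limma, adjusted p = 1 for each). In the lower piece wild type read 3.55, 3.29 and 4.15 and Tg+ read 4.11, 4.51 and 4.22. In limma none of the 4 genes passed for genotype in sham hearts above (0.035% of features passed) or below (0.0262%), and at an unadjusted p under 0.05 there were 0 and 1 of them. Between the pieces of sham hearts 0 of the 4 passed in limma, also 0 at an unadjusted p under 0.05, and 0% of features did.

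**Figure D1:**
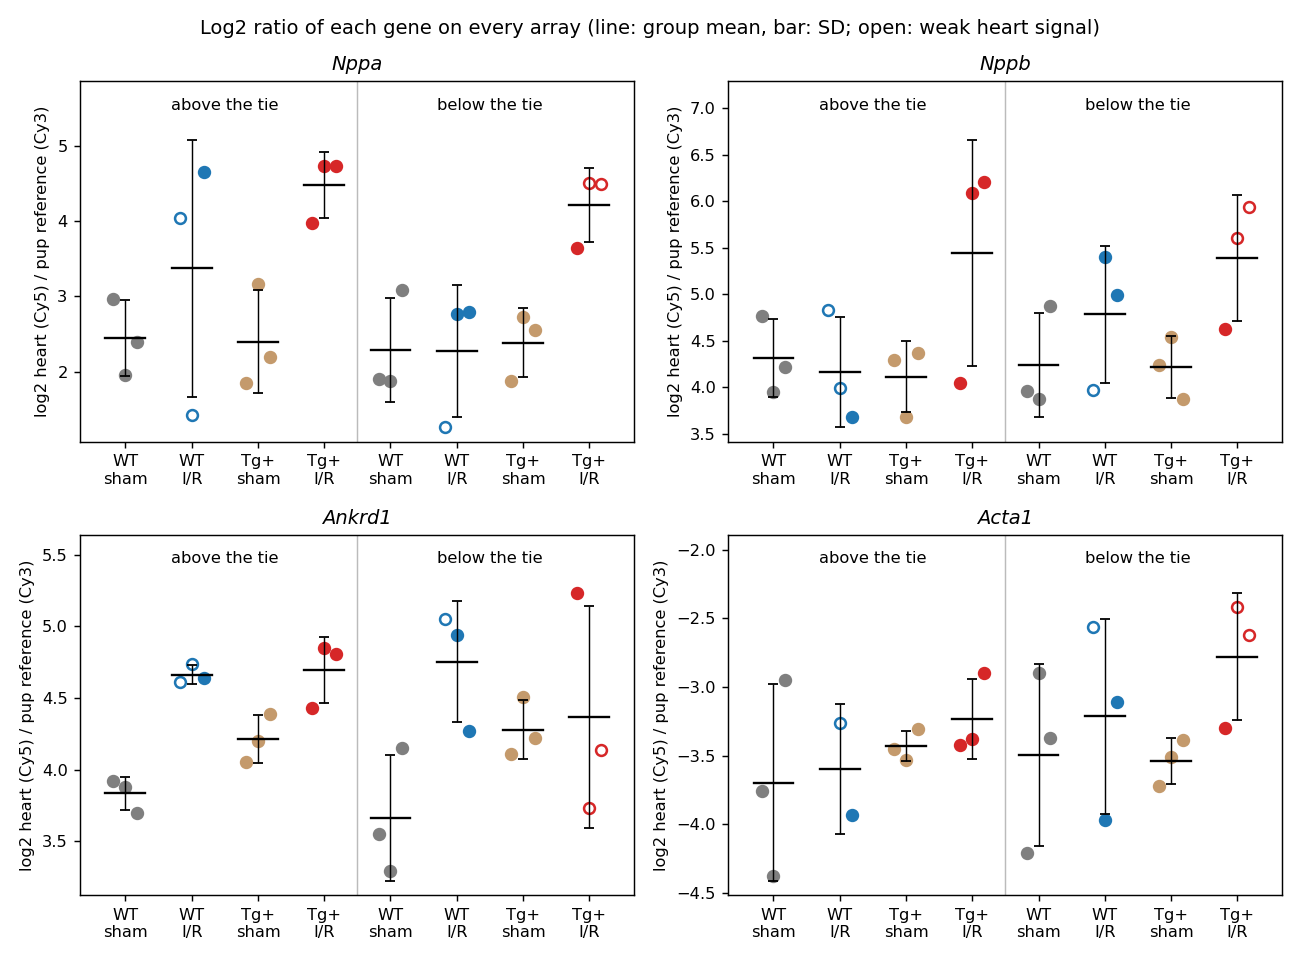
Log2 ratio of heart to pup reference for Nppa, Nppb, Ankrd1 and Acta1 on each array, by genotype, surgery and piece; the line is the group mean and the bar the SD of 3 arrays (2 for Acta1 in wild-type I/R above), and open points are the 5 arrays with weak heart signal. Nppa in Tg+ I/R lies between 3.65 and 4.74, above every Tg+ sham array, while wild-type I/R arrays spread from 1.26 to 4.65.

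In Tg+ hearts Nppa had the largest I/R minus sham difference of the 4 genes in both pieces. Above the tie Nppa read 3.97, 4.74 and 4.73 in Tg+ I/R, against 1.85, 3.16 and 2.19 in Tg+ sham. All 3 I/R arrays were higher, without overlap, as held for 25.1% of features. Nppa rose by 2.08 ± 0.63, or 4.22-fold (limma adjusted p = 0.0312). Below the tie it read 3.65, 4.51 and 4.49 in Tg+ I/R, again above every sham array (1.87, 2.73 and 2.56), as held for 27.3% of features. The brighter probe rose there by 1.83 ± 0.63, or 3.56-fold (adjusted p = 0.0325). Nppa was the only 1 of the 4 genes to pass in either Tg+ comparison, where 15.3% of features passed above the tie and 32.5% below it.

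In wild-type hearts Nppa was split between arrays. Above the tie the I/R arrays read 4.04, 1.43 and 4.65, so that 2 lay above every wild-type sham array and replicate 2 lay below all of them. The difference from sham was 0.93 ± 0.63 (limma adjusted p = 0.315). Replicate 2 was among the weak arrays, and without it the difference was 1.90 (adjusted p = 0.0288). Without all weak arrays, which leaves replicate 3 alone, it was 2.21 (adjusted p = 0.00852). Below the tie wild-type I/R read 1.26, 2.77 and 2.79, overlapping sham (1.90, 1.88 and 3.08), with a difference of -0.01 ± 0.63 (adjusted p = 0.993). The lowest of these, replicate 1, had the weakest heart signal of all arrays.

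Over both genotypes Nppa rose above the tie by 1.5 ± 0.44, or 2.84-fold (limma adjusted p = 0.0147), and Nppa and Ankrd1 were the 2 of 4 genes to pass there, where 32.7% of features passed. That difference stayed past the threshold without any single array (1.18 to 1.99) and without the weak arrays (2.14, adjusted p = 6.94e-05), but not with slide as a block (1.28, 0.18). Below the tie the mean of both genotypes was 0.91 ± 0.44 (adjusted p = 0.11). The Tg+ call above was lost without Tg+ sham above replicate 1 (1.80, adjusted p = 0.127) or 3 (1.97, 0.103) and without Tg+ I/R above replicate 2 (1.95, 0.0986) or 3 (1.95, 0.11). With slide as a block it was 1.70 (adjusted p = 0.273), and on slide 5, which held 1 array of each surgery, the pair differed by 2.55.

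The size of the Tg+ difference below the tie depended on the probe. On the loess ratio the second Nppa probe read 2.80, 1.65 and 2.20 in Tg+ I/R below, against 1.46, 2.30 and 2.06 in sham, which overlap. Its difference was 0.28 (limma adjusted p = 0.808), compared with 1.83 for the brighter probe. Above the tie the probes gave like sizes, 2.18 from the second (adjusted p = 0.0775) and 2.08 from the brighter. On sham arrays the brighter probe exceeded the second by 0.09 to 0.52. On the 5 weak arrays it exceeded it by 0.80 to 2.86, and the highest excesses, 2.86 and 2.29, were on the weak arrays of Tg+ I/R below. On Agilent's own ratio, which has no offset for dim spots, those excesses were 1.32 and 1.17, against -0.17 to 0.05 on sham arrays. There the second probe read 3.66, 3.24 and 3.28 in Tg+ I/R below, all above its sham values of 2.05, 3.02 and 2.77. Its Cy5 signal on the weak arrays of that group was 109 and 215, against 326 to 601 in sham. On the loess ratio Tg+ I/R below replicate 1, which was not weak, read 3.65 and 2.80 on the probes, each above all 3 sham arrays of that probe. Without the weak arrays the brighter probe's difference, now resting on that array, was 1.26 (adjusted p = 0.115). The call below was also lost without any 1 of the 3 sham arrays (1.57, 2.00 and 1.92, with adjusted p = 0.116, 0.052 and 0.0606), on leaving out replicate 2 (1.68, 0.107) or 3 (1.69, 0.103) of Tg+ I/R below, and with slide as a block (1.64, 0.278). The pair on slide 4 differed by 1.95. Why the probes part on weak arrays was not tested.

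**Figure D2:**
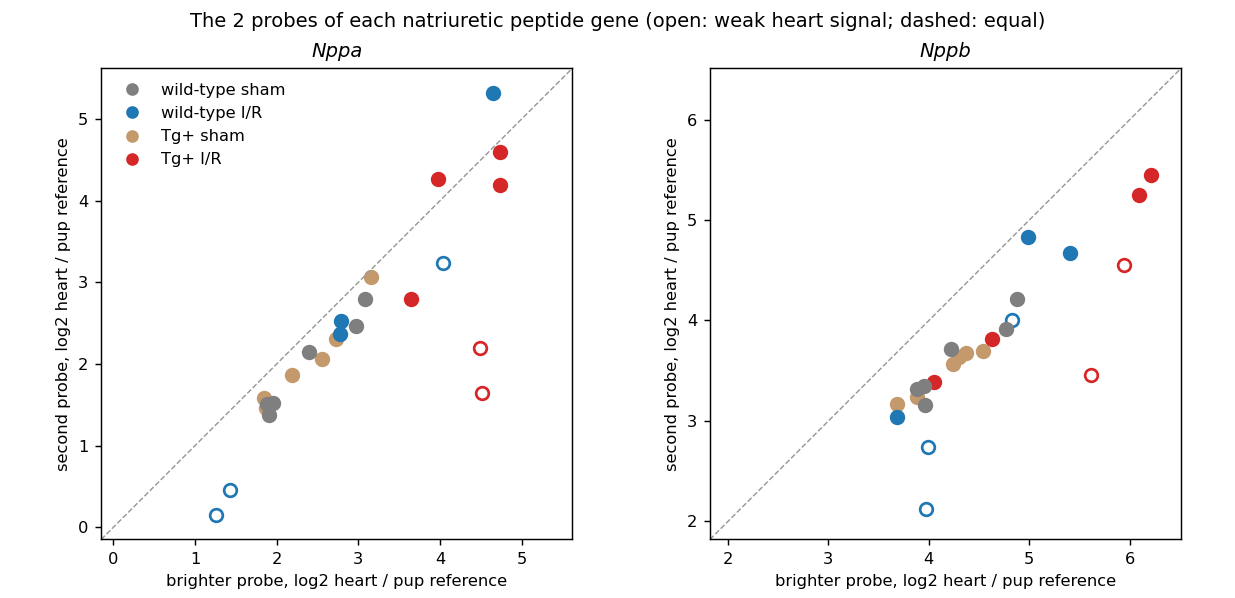
Log2 ratio of the second probe against that of the brighter probe for Nppa and Nppb, 1 point per array, with equal values on the dashed line; open points are arrays with weak heart signal. Sham arrays follow a line just under equality, while the 2 weak Tg+ I/R below arrays (open red) lie 2.86 and 2.29 under it for Nppa.

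Atrial muscle was checked beside Nppa, because the atria are the main adult source of its transcript and bulk pieces cannot tell more cells of a type from more RNA per cell. Above the tie the atrial light chain Myl7 read 4.62, 5.27 and 5.34 in Tg+ I/R and 4.90, 0.26 and 6.23 in wild-type I/R. In sham it read -1.66, 4.28 and -2.35 in Tg+ and -2.09, -1.13 and 2.67 in wild type. Sham arrays of one group thus differed by over 4 log2 units in Myl7. The wild-type I/R array with the lowest Nppa above the tie (1.43) also had the lowest Myl7 of the I/R arrays there, and the Tg+ sham array with the highest Nppa (3.16) had the highest Myl7 of the sham arrays.

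Over the 12 arrays from above the tie, Nppa and Myl7 had a Pearson r of 0.84, and Nppa and the atrial calcium pump regulator Sln had 0.79 (description, arrays of 4 groups). Of the atrial markers 10 were tested. Over both genotypes above the tie 6 of them rose and 1 fell, where 15.5% of all features rose and 17.3% fell. The markers had a median change of 0.67, against 0 for all features. Among them Myl7 rose by 4.48 ± 1.04 (limma adjusted p = 0.00335), Sln by 3.70 ± 0.80 (0.00204) and the atrial light chain Myl4 by 2.63 ± 0.68 (0.00669), while the potassium channel gene Kcnj3 fell by 0.64 on the log2 scale (0.0256). The mean log2 ratio of the 10 markers above the tie ranged from 0.97 to 1.4 in Tg+ I/R, -0.36 to 2.37 in wild-type I/R, -0.78 to 1.08 in Tg+ sham and -0.77 to 0.37 in wild-type sham. Their part in the Nppa result above the tie was not tested.

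Below the tie the atrial markers stayed low in all groups. Myl7 read -1.44, -0.54 and -0.72 in Tg+ I/R, where the brighter Nppa probe was at 3.65, 4.51 and 4.49, and -1.94 on each of the 3 Tg+ sham arrays. Sln read -4.11, -1.98 and -2.53 in Tg+ I/R against -4.68, -4.66 and -4.41 in sham. The mean of the 10 markers there was -0.71 to -0.40 in Tg+ I/R and -0.76 to -0.69 in Tg+ sham. In that comparison 15.4% of all features rose and 17.1% fell. Of the markers 1 rose and 2 fell, none of them Myl7, Sln or Myl4. The marker that rose was the nuclear receptor gene Nr2f2 (0.75 ± 0.20, limma adjusted p = 0.00851). Those that fell were Kcnj3, by 0.91, and Pam, the peptide-amidating enzyme of atrial granules, by 1.33 on the log2 scale. Across the 12 arrays below the tie Nppa and Myl7 had r = 0.33.

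**Figure D3:**
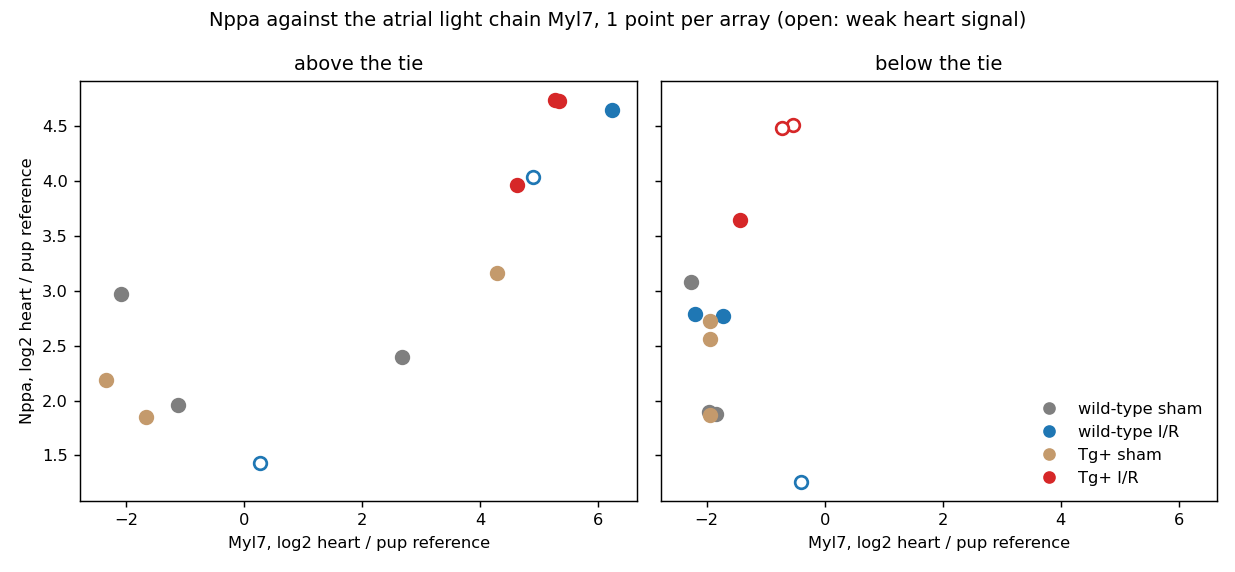
Log2 ratio of Nppa (brighter probe) against that of the atrial light chain Myl7 on each array, above the tie (left) and below it (right), coloured by genotype and surgery; open points have weak heart signal. Above the tie the 5 arrays with Nppa of 3.97 or more all have Myl7 of 4.62 or more, while below the tie the 3 Tg+ I/R arrays have Nppa of 3.65 to 4.51 with Myl7 under 0.

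Nppb moved in the same direction as Nppa in Tg+ hearts but did not pass the test. Above the tie Tg+ I/R read 4.05, 6.09 and 6.21, against 4.3, 3.68 and 4.37 in Tg+ sham. On this loess ratio replicates 2 and 3 were well above every other array of that piece, and replicate 1 lay inside the sham range. On Agilent's ratio replicate 3 (7.17) lay under wild-type I/R above replicate 2 (7.3), a weak array. The group means after I/R above were there 6.95 in Tg+ and 6.77 in wild type. The differences that follow are on the loess ratio. The difference was 1.34 ± 0.50, or 2.52-fold (limma adjusted p = 0.075). Without replicate 1 it was 2.04 (adjusted p = 0.0062), the Tg+ minus wild-type difference after I/R went from 1.28 ± 0.50 (0.252) to 1.98 (0.034), and the mean of both genotypes above went from 0.60 ± 0.36 (0.197) to 0.95 (0.0222). None of the weak arrays was in Tg+ above. Leaving them out thus could not change that difference (1.34) and altered only the shared estimate of the spread.

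Below the tie Nppb read 4.63, 5.61 and 5.94 in Tg+ I/R, all above the sham values of 4.24, 4.54 and 3.88. The same held for 27.3% of features. The difference was 1.18 ± 0.50, or 2.26-fold (limma adjusted p = 0.0764). On Agilent's ratio the same arrays read 6.88, 8.77 and 8.25, and the difference was 1.5 (adjusted p = 0.0439). On the loess ratio the second probe gave 0.44 (adjusted p = 0.573), and the brighter probe without the weak arrays gave 0.41. On Agilent's ratio the second probe read 6.83, 8.4 and 8.12 in Tg+ I/R below, all above its sham values of 6.26, 6.4 and 5.94. With replicate 1 of Tg+ I/R below left out, the loess difference of the brighter probe passed (1.56, adjusted p = 0.028). That group then holds only its weak arrays. The within-slide pairs differed by 1.72 above and 1.74 below in Tg+.

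Wild-type Nppb showed less on the loess ratio. Above the tie the I/R arrays read 4.83, 3.99 and 3.68, overlapping sham (4.77, 3.95 and 4.22), with a difference of -0.14 ± 0.50 (limma adjusted p = 0.863). Below it they read 3.97, 5.40 and 4.99 against 3.96, 3.88 and 4.88, a difference of 0.55 ± 0.50 (adjusted p = 0.565). On this loess ratio the arrays with strong signal, replicates 2 and 3, were the high ones. On Agilent's ratio the weak array, replicate 1, was the highest, at 8.12 against 6.94 and 5.98. Above the tie the wild-type group means on Agilent's ratio were 6.77 in I/R and 6.2 in sham. Over both genotypes below the tie Nppb differed by 0.86 ± 0.36 (adjusted p = 0.0626). That mean passed on Agilent's ratio (1.13, 0.0333). It also passed when 1 of 3 arrays of the lower piece was left out. Those were replicate 3 of wild-type sham (1.02, 0.0467), replicate 1 of wild-type I/R (1.07, 0.0297) and replicate 1 of Tg+ I/R (1.05, 0.0257). The last omission leaves Tg+ I/R below only its weak arrays.

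In wild-type hearts Ankrd1 rose after I/R in the lower piece. Above the tie its I/R arrays read 4.61, 4.74 and 4.64, the tightest group of the gene, against 3.92, 3.88 and 3.70 in sham, without overlap (16.6% of features). The difference was 0.83 ± 0.28, or 1.78-fold, and did not pass (limma adjusted p = 0.0581). In the Cy5 channel alone it was 0.05 ± 0.54 (adjusted p = 0.964). In limma none of the 4 genes passed there, where 13.3% of features did, and 1 of them had an unadjusted p under 0.05. Below the tie Ankrd1 read 5.05, 4.94 and 4.27 in I/R against 3.55, 3.29 and 4.15 in sham, again without overlap (9.37% of features). It rose by 1.09 ± 0.28, or 2.13-fold (adjusted p = 0.0302), the only 1 of the 4 genes to pass, where 5.6% of features did. Without the weak arrays the rise was 0.94 (adjusted p = 0.0112), and in the Cy5 channel alone the difference was 1.36 ± 0.54 (0.172).

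The wild-type call below was lost without wild-type sham below replicate 1 (1.03, limma adjusted p = 0.101) or 2 (0.91, 0.134), without wild-type I/R below replicate 1 (0.94, 0.0997) or 2 (1.00, 0.0694), and with slide as a block (0.75, 0.403). On slide 6 the single Ankrd1 pair, of replicate 3 in each surgery, differed by 0.13, and on slide 1 the pair above the tie differed by 0.69.

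In Tg+ hearts no I/R difference of Ankrd1 passed. Above the tie it read 4.43, 4.85 and 4.81 in I/R against 4.05, 4.20 and 4.39 in sham, with no overlap (25.1% of features). The difference there was 0.48 ± 0.28 (limma adjusted p = 0.252). Below the tie it read 5.23, 3.73 and 4.14 in I/R against 4.11, 4.51 and 4.22 in sham, a difference of 0.09 ± 0.28 (adjusted p = 0.816). Replicate 1 was the highest Ankrd1 value of the 24 arrays, and replicates 2 and 3, both weak arrays, lay near or under sham. Without the weak arrays the difference, resting on replicate 1, was 0.95 (adjusted p = 0.0301). The test of whether the I/R effect below differed between genotypes gave -1 ± 0.40 (limma adjusted p = 0.421). When Tg+ I/R below replicate 1 was left out, leaving that group only its weak arrays, it gave -1.43 (adjusted p = 0.0172). With all weak arrays left out it gave 0.01. Without Tg+ I/R below replicate 1 the Tg+ minus wild-type difference after I/R below went from -0.38 ± 0.28 (0.374) to -0.81 (0.025).

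Over both genotypes Ankrd1 rose by 0.65 ± 0.20, or 1.57-fold, above the tie (limma adjusted p = 0.0181) and by 0.59 ± 0.20, or 1.51-fold, below it (adjusted p = 0.0279). It was the only 1 of the 4 genes to pass below, where 36.8% of features did. Above the tie the difference held without any single array (0.61 to 0.72), with slide as a block (0.73, adjusted p = 0.0488) and without the weak arrays (0.65, 0.00707), but it missed the threshold on Agilent's ratio (0.65, 0.0511) and in the Cy5 channel alone (0.01, 0.994). Below the tie it was lost with slide as a block (0.33, 0.34) and without any 1 of 6 arrays. Those were wild-type sham replicates 1 (0.56, 0.0529) and 2 (0.50, 0.0778), Tg+ sham replicates 1 (0.55, 0.0639) and 3 (0.58, 0.0523), wild-type I/R replicate 1 (0.52, 0.0692) and Tg+ I/R replicate 1 (0.38, 0.0576).

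Acta1 passed in none of the 15 comparisons. Its signal in the newborn reference was far above that of adult heart, so that every ratio was negative. In sham hearts it read -3.76, -4.38 and -2.95 in wild type above, -4.21, -2.90 and -3.37 in wild type below, -3.45, -3.53 and -3.31 in Tg+ above and -3.72, -3.51 and -3.39 in Tg+ below. Wild-type sham arrays were thus spread over more than a log2 unit, whereas the Tg+ sham arrays lay close together.

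After I/R Acta1 above the tie read -3.26 and -3.93 in wild type, where the spot of replicate 1 carried an outlier mark and was left out (-3.52 if kept), and -3.42, -3.38 and -2.90 in Tg+. Below the tie wild-type I/R read -2.56, -3.97 and -3.11, while Tg+ I/R read -3.30, -2.42 and -2.62. These Tg+ arrays below were all higher than their sham arrays, as held for 27.3% of features. The difference was 0.76 ± 0.38, or 1.69-fold (limma adjusted p = 0.124). The other I/R minus sham differences were 0.10 ± 0.42, 0.28 ± 0.38 and 0.20 ± 0.38 in wild type above, wild type below and Tg+ above, with 95% intervals of -0.79 to 0.98, -0.51 to 1.07 and -0.60 to 0.99. In Tg+ below the 95% interval was -0.03 to 1.55. A p above the threshold here does not show that Acta1 was unchanged, since the intervals reach 1.55 upward and -0.79 downward.

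The 3 highest Acta1 values of I/R hearts, -2.42, -2.56 and -2.62, were on arrays with weak heart signal. Over the 11 I/R arrays with a value the Acta1 ratio and the share of Cy5 spots above background had r = -0.78 (description). Without the weak arrays the Tg+ difference below was 0.24 (limma adjusted p = 0.781), and on Agilent's ratio it was 0 (0.999), where the arrays read -3.50, -3.82 and -3.46. In the Cy5 channel alone it was -0.46 (0.38), and the other 3 differences were -0.89, -0.48 and -0.36, so that the direction turned in all 4. On Agilent's scale the other 3 differences turned negative, as did the median of all features, by 0.07 to 0.24. The mean of both genotypes below, 0.52 ± 0.27 (adjusted p = 0.131), passed when replicate 2 of wild-type I/R below was left out (0.71, 0.0352).

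Other skeletal muscle genes were checked beside Acta1. Of 12 tested markers 7 rose and 1 fell in Tg+ below, where 15.4% of all features rose and 17.1% fell. The markers had a median of 1.25, against 0 for all features. Among them the fast troponin gene Tnni2 rose by 2.03 ± 0.70 (limma adjusted p = 0.0331), and its values of -2.68, 0.08 and -1.09 in Tg+ I/R below were highest on the weak arrays. The fast myosin gene Myh4 fell by 0.66 on the log2 scale (0.0165). The mean of the 12 markers was -2.37 to -1.01 in Tg+ I/R below and -2.81 to -2.62 in Tg+ sham below, and reached -0.86 on a wild-type I/R below array. Their part in the Acta1 values was not tested.

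**Figure D4:**
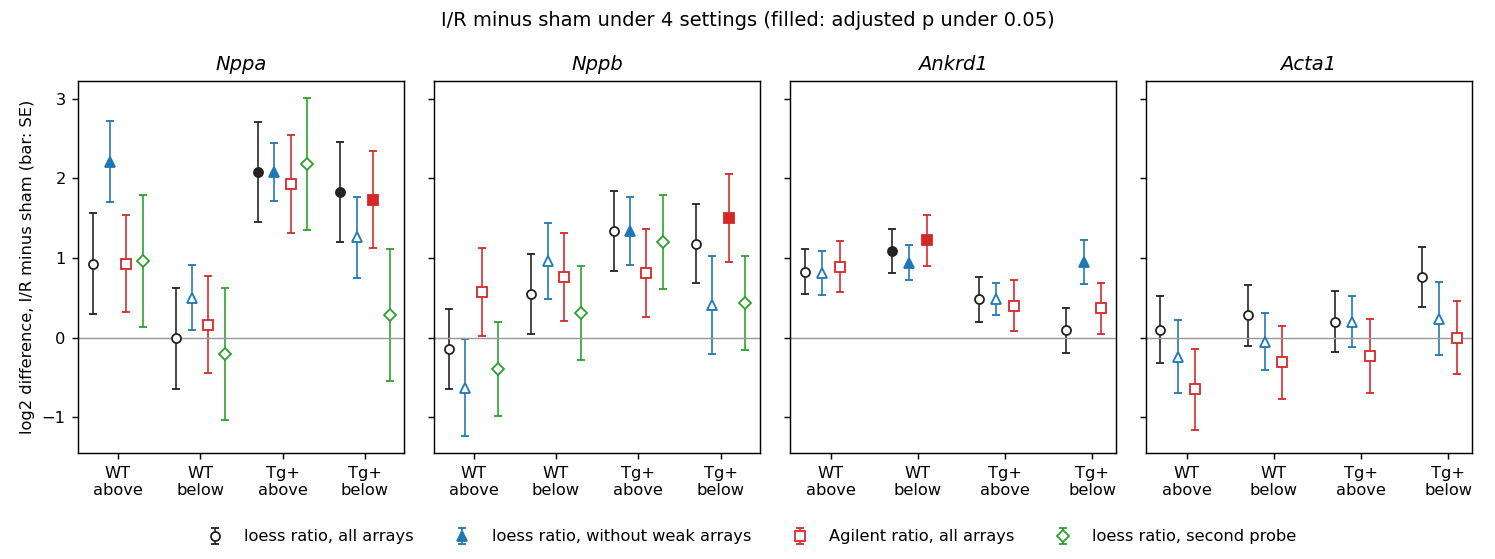
I/R minus sham difference (log2) of each gene by genotype and piece, with SE bars, from the loess ratio on all arrays, without the 5 weak arrays, from Agilent's ratio, and from the second probe of Nppa and Nppb; filled points have a limma adjusted p under 0.05. Nppa in Tg+ above stays near 2 in all 4, but no weak array is in that comparison, so leaving them out could not move it. Nppa in Tg+ below runs from 0.28 to 1.83, and Acta1 lies within 0.76 of 0 throughout.

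Genotype after I/R was compared directly. Nppa was higher in Tg+ than in wild type below the tie on every array (3.65 to 4.51 against 1.26 to 2.79), as held for 5.19% of features. The difference was 1.94 ± 0.63, or 3.84-fold (limma adjusted p = 0.0873). It passed when replicate 1 of Tg+ I/R below was left out (2.23, 0.0388), which leaves that group only its weak arrays. With array weights it also passed (1.65, 0.0143), as did 6312 of 11430 features, against 334 in the main fit. With the second probe it was 0.53 (0.673), and without the weak arrays 0.87 (0.317). Above the tie Nppa differed by 1.10 ± 0.63 (0.458), with overlap. In limma none of the 4 genes passed for genotype after I/R above (0.656% of features passed) or below (2.92%), and 1 of them had an unadjusted p under 0.05 in each.

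The difference in the I/R effect between genotypes was 1.15 ± 0.88 above (limma adjusted p = 0.833) and 1.84 ± 0.88 below (0.479) for Nppa, and 1.48 ± 0.71 (0.606) and 0.63 ± 0.71 (0.695) for Nppb. In limma none of the 4 passed in either test, where 0.0175% of features passed, and 0 above and 1 below had an unadjusted p under 0.05. With array weights the difference below passed for Nppa (1.76, 0.0331) and Ankrd1 (-0.95, 0.024). Under those weights 5140 of 11430 features passed that test, against 2 in the main fit. In the fit without weights the Nppa response of Tg+ hearts is not shown to differ from that of wild type. Between pieces of I/R hearts 0 of 4 passed in limma (0.175% of features), and none had an unadjusted p under 0.05. The largest was -0.68 ± 0.44 (adjusted p = 0.634), for Nppa, below minus above. The test of whether the I/R effect differed by piece also called 0 of 4 in limma, with 0 at an unadjusted p under 0.05, and 0% of features.

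Group means are ordered here for the brightest probes on the loess ratio. Nppa was highest in Tg+ I/R above (4.48 ± 0.44 SD, n = 3) and Tg+ I/R below (4.22 ± 0.49). Wild-type I/R above came next (3.37 ± 1.71), with the other 5 groups between 2.27 and 2.44. Nppb had the same groups first, at 5.45 ± 1.22 and 5.39 ± 0.68, then wild-type I/R below at 4.79 ± 0.74. On the second Nppa probe Tg+ I/R below (2.22) lay under wild-type I/R above (3.01). On Agilent's ratio Nppb in wild-type I/R below (7.01) lay above Tg+ I/R above (6.95) and under Tg+ I/R below (7.97). Agilent's ratio of the brighter Nppa probe and the loess ratio of the second Nppb probe kept the leading groups in the order given. Ankrd1 had wild-type I/R below first (4.75 ± 0.42), then Tg+ I/R above (4.69 ± 0.23) and wild-type I/R above (4.66 ± 0.06), and both wild-type sham groups last (3.83 ± 0.12 and 3.66 ± 0.44). Acta1 ran from -2.78 ± 0.46 in Tg+ I/R below to -3.70 ± 0.72 in wild-type sham above. Neighbours in the orders of the brightest probes on the loess ratio overlapped in their arrays, except Tg+ sham above and wild-type sham above for Ankrd1.

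The gene lists below are read against all features, of which 5.97%, 2.14%, 6.95% and 15.4% rose and 7.31%, 3.46%, 8.37% and 17.1% fell in wild type above, wild type below, Tg+ above and Tg+ below. Over both genotypes 15.5% rose and 17.3% fell above the tie, and 17.2% rose and 19.7% fell below it. Of 8 other genes of the natriuretic system that were tested, 1 passed in 3 of the 4 comparisons within a genotype and 0 in Tg+ above by limma, while 1 rose and 2 fell over both genotypes above the tie. Furin, which cuts the B-type precursor, rose by 0.59 ± 0.17 in wild type above (limma adjusted p = 0.028), 0.62 ± 0.17 in wild type below (0.04) and 0.67 ± 0.17 in Tg+ below (0.00707), and differed by 0.49 ± 0.17 in Tg+ above (0.0559). It was the gene that passed in those 3 comparisons. Corin, the protease of the atrial precursor, differed by -1.03 ± 0.39 in Tg+ below (0.0514), where 2 of its 3 I/R values, 0 and 0.26, were on the weak arrays, against 1.41 to 1.68 in sham. The clearance receptor gene Npr3 lay between -0.26 and 0.17 in the 4 comparisons. Over both genotypes above the tie the receptor gene Npr2 fell by 0.17 and Mme, which encodes the peptide-degrading neprilysin, fell by 0.20 on the log2 scale (adjusted p = 0.0393 and 0.0168). Nppc, Npr1, the receptor of both peptides, and Pde5a were too dim to test.

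Of 20 transcription factor genes linked to these promoters 18 were tested. In Tg+ below 6 fell and 2 rose, with a median of -0.33, and in Tg+ above 1 fell and 1 rose. In wild type 2 fell and 0 rose in each piece. Srf, which encodes the factor of the CArG box, fell by 0.51 in wild type above, Tg+ above and Tg+ below (limma adjusted p = 0.0391, 0.0357 and 0.0209). Wwtr1, a Hippo pathway coactivator of TEAD factors, fell by 0.89 in wild type above, 0.59 in wild type below and 0.70 in Tg+ below (0.000586, 0.0167 and 0.00141). Myocd, a coactivator of serum response factor, fell by 0.85 in Tg+ below (0.0343). The immediate early gene Egr1 rose by 0.79 ± 0.20 in Tg+ above and 0.90 ± 0.20 in Tg+ below (0.0134 and 0.00324), and the calcineurin target Nfatc4 by 0.45 ± 0.15 in Tg+ below (0.0273). Gata4 and Nfatc2 were too dim to test.

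Other fetal and hypertrophy genes did not move as one block. Of 15 tested, 3 rose and 2 fell in Tg+ below, 3 rose and 3 fell in Tg+ above, 2 rose and 1 fell in wild type below, and 2 rose and 3 fell in wild type above. The medians were 0.01, 0.05, 0.14 and -0.05, against 0 for all features. Myh7, the fetal ventricular myosin, read 3.97, 4.26 and 1.06 in Tg+ I/R below and -0.97, -1.31 and -0.26 in sham. It rose by 3.94 ± 0.76 there (limma adjusted p = 0.00127) and by 2.61 ± 0.76 in Tg+ above (0.0277). Myh6, the adult myosin, fell by 1.3 in Tg+ below (0.0167).

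Ccn2, a secreted matrix protein gene, rose in all 4 comparisons, by 2.16 ± 0.53 and 1.90 ± 0.53 in wild type above and below and by 3.12 ± 0.53 and 2.97 ± 0.53 in Tg+ (limma adjusted p = 0.012, 0.0427, 0.00131 and 0.000724). The LIM protein gene Fhl1 also rose in all 4, from 1.75 ± 0.56 in Tg+ above to 3.59 ± 0.56 in Tg+ below. Its highest values, 1.81, 1.69 and 1.17, were on weak arrays. Cardiac alpha-actin, Actc1, the adult partner of Acta1, fell in all 4 comparisons, with differences of -1.88 and -1.31 in wild type above and below and -1.32 and -1.97 in Tg+ (1 outlier-flagged Tg+ sham above array was left out). It read 0.37, 0.14 and 0.04 in Tg+ I/R below against 2.10, 2.23 and 2.14 in sham, where the groups are far apart. The coding regions of these actins are alike, and cross-hybridisation between them was not tested. Acta2, smooth muscle actin, fell by 0.77 in wild type above and 0.84 in Tg+ above.

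Relatives and titin partners of Ankrd1 were also counted. Of 9 tested, 3 fell and 1 rose in Tg+ below, 1 fell and 1 rose in Tg+ above, and 2 and 1 fell in wild type above and below. Ankrd2, a stretch-responsive relative, rose by 0.89 ± 0.25 in Tg+ above and 1.10 ± 0.25 in Tg+ below (limma adjusted p = 0.021 and 0.00345). Ankrd23, the third relative, lay between -0.84 and -0.12 in the 4 comparisons and did not pass. Fhl2, a LIM protein of the sarcomere, fell by 0.98 in Tg+ above and 1.60 in Tg+ below (0.00752 and 0.000106). Titin itself, Ttn, fell by 1.29 in wild type above and 1.38 in wild type below (0.0398 and 0.0492), and Casq2, the calcium store protein, by 0.89 in wild type above and 1.02 in Tg+ below (0.0197 and 0.00452). Trim63 fell by 1.53 in Tg+ below (0.0071).

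Markers of other cell types in the pieces were counted in the same comparisons, in the order wild type above, wild type below, Tg+ above and Tg+ below. Of 4 tested neutrophil markers 3, 4, 4 and 4 rose, with medians of 1.39, 1.56, 1.46 and 1.83. Of 7 macrophage markers 3, 1, 4 and 2 rose and none fell, and of 4 epicardial and mesothelial markers 3, 0, 2 and 3 rose. Fibroblast markers had medians of 0.71, 0.23, 0.62 and 0.9, and 0, 0, 1 and 1 of 7 rose. Of 6 endothelial markers 3, 2, 0 and 2 fell and none rose. Of 7 smooth muscle markers 1, 0, 2 and 1 rose and 2, 1, 2 and 1 fell, and neither of 2 red blood cell markers passed in limma. The part of these shifts in the results of the 4 genes was not tested.

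Across the 24 arrays the 4 genes were only loosely alike. Nppa and Nppb, which lie side by side on chromosome 4, had a Pearson r of 0.63, or 0.50 without the weak arrays. Ankrd1 had r = 0.27 with Nppa and 0.25 with Nppb, rising to 0.69 and 0.55 without the weak arrays, and r = 0.05 with Acta1. Acta1 had r = 0.21 with Nppa and 0.37 with Nppb. These are descriptions over arrays that share groups and a reference.

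The features most like Nppa were P2ry6 (0.86), B9d2 (0.83), Ifi27l2a (0.82) and Rarres2 (0.82), and without the weak arrays their r was 0.77 to 0.88. Those most like Nppb were Nuak1 (0.84), Itga5 (0.84) and the unnamed probes NAP107478-1 (0.84) and TC1410447 (0.83). On Agilent's ratio Itga5 fell to 0.08 and Nuak1 stayed at 0.83. Most like Acta1, over 23 arrays, were TC1459687 (0.84), Igf2 (0.83), Mylpf (0.83) and Myh3 (0.82), genes that, like it, are far brighter in the pup reference. Their r with the share of Cy5 spots above background was -0.66 to -0.28. Most like Ankrd1 were Mettl9 (0.78), Ptp4a1 (0.77), Polr3gl (0.74) and Ubr2 (0.74), and in the Cy5 channel alone these fell to between -0.04 and 0.26.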

How the data were processed

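Per the file headers, Feature Extraction 9.5.3.1 gave each spot's intensity in both channels, deposited as linear values with local background, and a log10 ratio after Agilent's own background and dye normalization. The series value table holds log2 ratio values deposited by the authors; each column matched its array's ratio (r = 1, slope 1, Cy5 over Cy3; medians -0.67 to 0.20), and whether genes were centred further is not stated. A labelling text names Cy3 for heart RNA, while label and source fields name Cy5, used here; no dyes were swapped. Here limma 3.58.1 (R 4.3.3) applied normexp (offset 50), which understates changes of dim spots, and loess. Duplicate spots were averaged without outlier-flagged ones. Of 41174 probes 15427 passed a filter (heart channel well above background in every array of 1 or more groups), and the brightest per gene was kept (11430 features). One lmFit and eBayes fit of 8 group means (16 residual df) gave all comparisons, with Benjamini-Hochberg adjustment over all features and a threshold of 0.05. It was checked on simulated data. Symbols were updated through RefSeq: 22951 probes matched by accession and 3109 by an older symbol. Members and lists were chosen with earlier results of these data known. Named genes were the 4 genes, up to 4 called members per list and comparison, and the 4 features most correlated with each gene; Corin, Npr3 and Ankrd23 were added after their values were seen. Pieces entered as separate arrays with no heart term, since the labels do not say that a number marks a heart and not every same-numbered pair had a correlation of deviations over 0.1 (8 of 12 had, against 8 of 24 pairs of different numbers). Values after ± are SE of the fit unless SD is given. The 7 slides, weak arrays, other ratios, filters, probes and array weights were tried as alternatives.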

Additional observations from a re-analysis of the deposited data

How the results depend on the processing

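No direction of a called value reversed under any setting, but most calls of the 4 genes depended on the setting. Numbers of the 4 genes called are given after the main number. I/R minus sham in Tg+ above (1) called 0 on Agilent's ratio, on the series value table, without the filter on dim probes, with slide as a block and with the second probes, 2 without the 5 weak arrays or with only the comparison's arrays, 3 with array weights, and 0 to 2 with each array left out in turn. In Tg+ below (1) it called 0 in the Cy5 channel alone, without the filter, with the mean of all probes, with slide as a block, with the second probes and on Agilent's ratio without weak arrays, 2 on Agilent's ratio and the series value table, 3 with array weights or only the comparison's arrays, and 0 to 2 leaving out arrays. In wild type above (0) it called 2 with array weights, 1 with only the comparison's arrays or without weak arrays (loess or Agilent), and 0 to 1 leaving out arrays. In wild type below (1) it called 0 in Cy5 alone, without the filter, with slide as a block, with only the comparison's arrays and on Agilent's ratio without weak arrays, and 0 to 1 leaving out arrays. The mean of both genotypes above (2) called 1 on Agilent's ratio (with or without weak arrays), the series value table, Cy5 alone and slide as a block. The mean below (1) called 2 without background correction, on Agilent's ratio, the series value table and array weights, 0 without the filter, with slide as a block and with only the comparison's arrays, and 0 to 2 leaving out arrays. With array weights Tg+ minus wild type after I/R below called 1, where 6312 of all features passed. The genotype by surgery interaction below called 2 with them, where 5140 of all features passed. Both numbers were 0 in the main fit. Leaving out arrays gave 0 to 2 and 0 to 1 for these, and Tg+ minus wild type after I/R above gave 0 to 1.

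Counts of all features called also moved by over 1.5 times: in Tg+ above 1751 became 741 on Agilent's ratio, 361 with slide as a block and 5219 with array weights, and in Tg+ below 3716 became 238 and 6210 under the last 2 settings. Same-numbered pieces had correlated deviations over 0.1 in 8 of 12 pairs, against 8 of 24 for different numbers, and 14 of 24 arrays correlated best with their own number. These correlations ran from -0.73 to 0.54 for same numbers and from -0.74 to 0.79 for different ones. With same-numbered pieces as a random block the correlation shared over features was 0.08. This is at most a weak hint from the data that numbers may mark hearts, which the labels do not state. With the number as a replicate block, I/R minus sham called 0, 1, 1 and 1 of the 4 genes in wild type above and below and Tg+ above and below, as in the main fit. Limits: groups of 3 arrays, no dye swap, weak heart signal on 5 I/R arrays, and a reference near background for Nppb. The second probes, keeping outlier-flagged spots and Agilent's ratio without weak arrays were chosen after seeing the data, and no cause of these changes was tested.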
